A study of Arabidopsis thaliana with 23 samples.

Results

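The 10 heat shock factor genes described here are *HSFA1A*, *HSFA1B*, *HSFA1D*, *HSFA2*, *HSFA3*, *HSFA4A*, *HSFA7A*, *HSFB1*, *HSFB2A* and *HSFB2B*. They were taken by locus name, with no measured value in the rule, from the 37899 nuclear genes of the annotation, and the family holds 11 further genes, given as a group. Tetra-acetylation of histone H4 (H4ac) and trimethylation of lysine 27 of histone H3 (H3K27me3) had been profiled by ChIP-Seq in whole seedlings of *Arabidopsis thaliana*, 12 days old. The wild type (WT) was the line DR5 in the Col-0 background, and the mutant was *axe1-5*, an *hda6*/*rpd3b* allele that lacks function of the histone deacetylase HDA6, so the genotype rests on 1 mutant line. Seedlings of each genotype were moved for 3 h to plates with 50 µM methyl jasmonate (MeJA) or to mock plates. Each of the 4 conditions had 2 H4ac libraries, and H3K27me3 was analysed in 7 libraries, since only replicate 2 of WT +MeJA was used. In whole seedlings, a mark carried by fewer cells and a mark that is weaker in each cell cannot be told apart.

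Heat shock factors are transcription factors that bind heat shock elements, arrays of the unit nGAAn in alternating orientation. Class A factors activate transcription: the A1 group is present before stress and switches on *HSFA2*, *HSFA7A*, *DREB2A* and genes for heat shock proteins, and the product of *DREB2A* in turn activates *HSFA3*. The class B factors HSFB1, HSFB2A and HSFB2B carry a repressor motif and limit the response. H4ac is a mark of active genes and lies mainly just downstream of the transcription start, H3K27me3 is a mark of genes silenced by Polycomb complexes, and HDA6 removes acetyl groups from histone tails.

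The value of a gene was the fold enrichment over input of its strongest peak, counting peaks whose summit fell within the gene. A value of 0 says only that the list held no such peak. The H4ac libraries kept 3235473 to 14717755 tags, and the WT mock libraries were the shallowest. Their lists had median fold enrichments of 5.9 and 6.83, against 9.2 and 9.98 in WT +MeJA, 6.12 and 9.38 in *axe1-5* mock, and 8.32 and 10.7 in *axe1-5* +MeJA. Depth and fold enrichment therefore moved together with the conditions, and their part in the results was not tested. The marks were separated at 5 control genes. *AG*, *WUS* and *STM*, developmental genes known to be under Polycomb control in seedlings, had no H4ac summit in any library and H3K27me3 summits in 7, 7 and 6 of 7 libraries, whereas *ACT7* and *UBQ10*, expressed in most cells, had no H3K27me3 summit and H4ac summits in 6 and 8 of 8.

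Of the 10 genes, 2 had a heat shock element of 3 units within 500 bp upstream of their annotated start, *HSFA2* and *HSFA7A*. These were also the 2 genes whose H4ac calls differed between conditions, so their upstream sequences are shown first. The motif was searched as GAANNTTCNNGAA and TTCNNGAANNTTC, each the reverse complement of the other, so that both strands were covered. It was found in 0.827% of 27443 protein-coding genes. Sequences are from the RefSeq copy of TAIR10.1, whose nuclear chromosomes are those of TAIR10, and are written 5′ to 3′ along the gene, with the heat shock element in capitals. The *HSFA2* stretch is the whole 158 bp between *HSFA2* and the divergent gene *ftsh4* (AT2G26140, a mitochondrial protease), and its second run of capitals is a G-box, CACGTG, a palindrome bound by bHLH and bZIP factors and present in 9.35% of the same windows. *HSFA7B*, the closest relative of *HSFA7A*, is given for comparison.
HSFA2 to ftsh4, chr2:11135466-11135623, plus strand: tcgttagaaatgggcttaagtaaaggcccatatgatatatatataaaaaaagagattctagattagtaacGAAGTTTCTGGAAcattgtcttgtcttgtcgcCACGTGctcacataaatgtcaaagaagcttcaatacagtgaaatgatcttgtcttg
HSFA7A, chr3:19264989-19265021, plus strand: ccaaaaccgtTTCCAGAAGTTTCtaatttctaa
HSFA7B, chr3:23399069-23399101, plus strand: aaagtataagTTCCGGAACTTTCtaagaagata
The element shown ended 75 bp before the start of *HSFA2*, 129 bp before that of *HSFA7A* and 144 bp before that of *HSFA7B*. The window of *HSFA7A* held 2 matches, the other lying farther upstream. The G-box shown ended 50 bp before *HSFA2*, the only gene of the 10 with a G-box in the window. That window held 2 G-boxes, the other lying upstream of the printed stretch. A match of letters is a description and no evidence of binding. The 3-unit motif was not found in the windows of the other 8 genes.

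Most of the 10 genes carried H4ac in every condition. A summit was listed in 71 of the 80 pairs of gene and library, and 8 of the 10 genes had one in all 8 libraries, a state reached by 28.5% of protein-coding genes. Summits lay 225 to 1275 bp downstream of the annotated start (median 553 bp), 59 in a coding exon and 12 in the 5′ UTR. Summits inside a gene fell at similar places across libraries: 225 to 385 bp from the start in the A1 genes, and in coding exon 2, 1096 to 1275 bp from the start, in *HSFA7A*, *HSFB1* and *HSFB2A*. Among the 8 genes with a summit in every library, the mean fold enrichment ran from 9.96 ± 2.93 (SD, n = 8 libraries) at *HSFB1* through 9.74 ± 2.16 at *HSFA1A*, 9.63 ± 2.71 at *HSFA1D*, 9.39 ± 2.16 at *HSFB2B*, 9.23 ± 2.55 at *HSFB2A*, 9.0 ± 2.49 at *HSFA1B* and 8.25 ± 2.70 at *HSFA3* to 7.61 ± 1.75 at *HSFA4A*. No neighbours in this order differed by more than their SD.

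**Figure D1:**
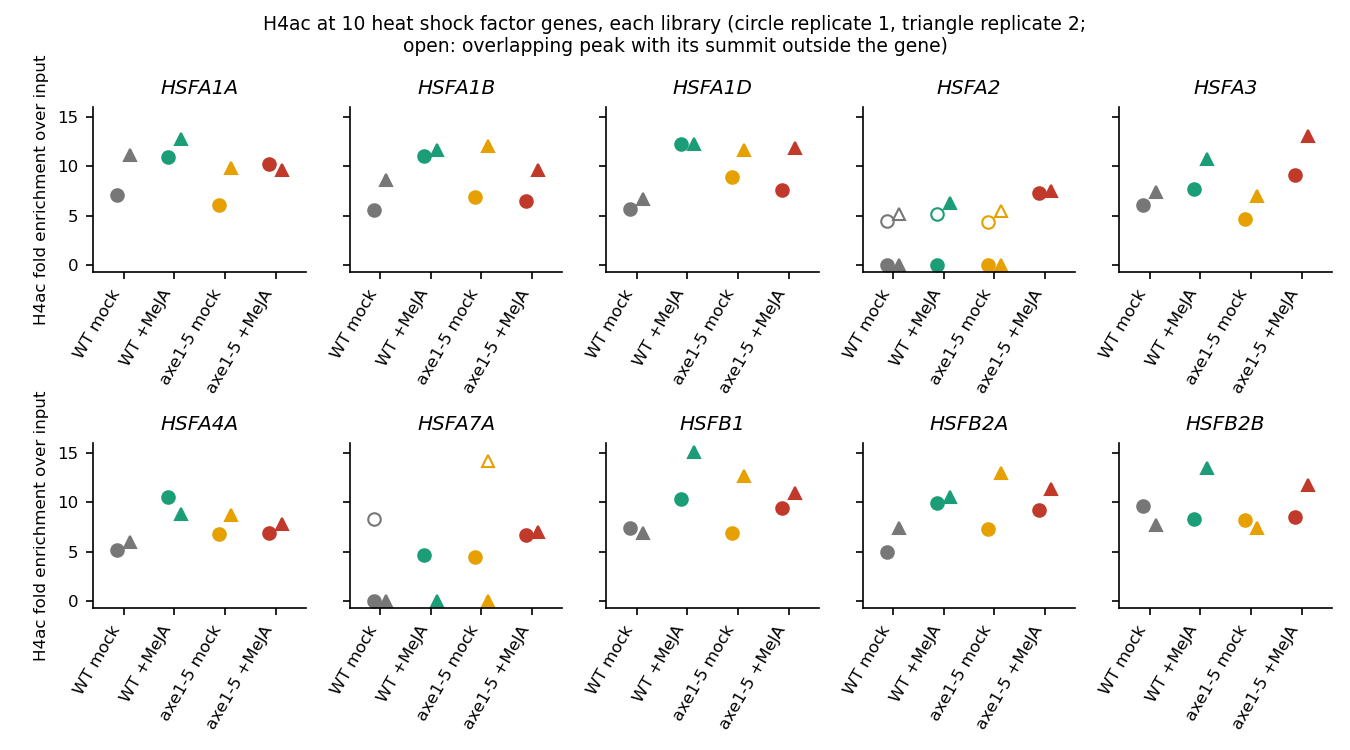
H4ac fold enrichment over input (y axis) at each of the 10 genes in the 4 conditions, with a circle for replicate 1, a triangle for replicate 2, and open symbols for an overlapping peak whose summit lay outside the gene. 8 genes have a summit in every library, and *HSFA2* and *HSFA7A* have summits in both *axe1-5* +MeJA libraries but in neither WT mock library.

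The A1 genes encode the master activators of the heat response. At *HSFA1A* (AT4G17750, chromosome 4, 9869818 to 9871646), H4ac fold enrichment was 7.13 and 11.14 in WT mock, 10.97 and 12.74 in WT +MeJA, 6.13 and 9.89 in *axe1-5* mock, and 10.25 and 9.67 in *axe1-5* +MeJA. Each of the other 3 conditions overlapped WT mock. At *HSFA1B* (AT5G16820, chromosome 5, 5530195 to 5532889) the values were 5.57 and 8.63, 11.08 and 11.65, 6.87 and 12.02, and 6.54 and 9.62 in the same order of conditions. WT +MeJA lay above WT mock there, and the *axe1-5* groups overlapped each other. *HSFA1D* (AT1G32330, chromosome 1, 11656964 to 11660471) had 5.74 and 6.73 in WT mock, 12.25 and 12.26 in WT +MeJA, 8.90 and 11.70 in *axe1-5* mock, and 7.58 and 11.90 in *axe1-5* +MeJA. Both WT mock libraries were below every other library at *HSFA1D*.

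*HSFA2*, the heat-induced activator that sustains the response and its memory, was the gene that changed most in its calls. At *HSFA2* (AT2G26150, chromosome 2, 11135624 to 11137792), no summit was listed in WT mock or *axe1-5* mock, the value was 6.35 in WT +MeJA replicate 2 and 0 in replicate 1, and it was 7.34 and 7.52 in *axe1-5* +MeJA. An H4ac peak nevertheless covered the start of the gene in all 8 libraries. That peak was shared with *ftsh4*, with fold enrichments of 4.49 and 5.18 in WT mock, 5.22 and 6.35 in WT +MeJA, 4.36 and 5.48 in *axe1-5* mock, and 7.34 and 7.52 in *axe1-5* +MeJA. Its summit lay inside *ftsh4* in 5 libraries, 495 to 583 bp upstream of the start of *HSFA2*, and in coding exon 1 of *HSFA2* in the other 3, 261 to 332 bp downstream. The 2 *axe1-5* +MeJA libraries had the highest fold enrichments of the shared peak, and its length was 2977 and 2834 bp there, against 2024 to 2382 bp in the 5 libraries with the summit in *ftsh4* and 2193 bp in WT +MeJA replicate 2. The stretch printed above, with its heat shock element and G-box, lies between the 2 summit positions.

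*HSFA7A* (AT3G51910, chromosome 3, 19265141 to 19266806), another heat-induced activator, had a fold enrichment of 4.65 in WT +MeJA replicate 1, 4.47 in *axe1-5* mock replicate 1, and 6.68 and 7.04 in *axe1-5* +MeJA, and no summit in the other 4 libraries. In WT mock replicate 1 and *axe1-5* mock replicate 2, a peak of 8.29 and 14.23 reached into the gene from *CAM9* (AT3G51920, a calmodulin-like gene 1144 bp downstream), with its summit 4076 and 4032 bp from the start of *HSFA7A*. No peak overlapped *HSFA7A* in WT mock replicate 2 and WT +MeJA replicate 2. All 4 of its own summits were weak for their libraries, at percentiles 2.2, 15.3, 20.9 and 5.3 of the genes with an H4ac summit, and the 3 of *HSFA2* were at 10.1, 31.8 and 8.2.

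**Figure D2:**
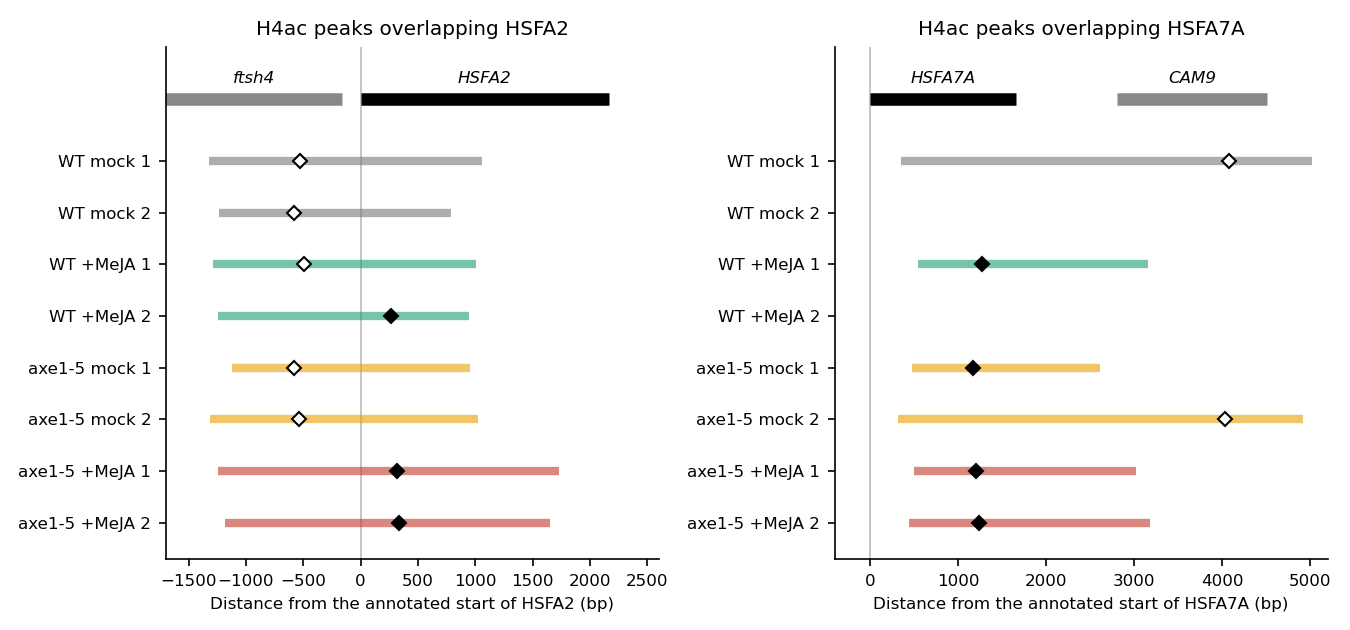
Extent of every H4ac peak that overlaps *HSFA2* (left) or *HSFA7A* (right), by library (y axis), as distance in bp from the annotated start of the gene (x axis), with a filled diamond for a summit inside the gene, an open diamond for one in the neighbouring gene, and gene bodies drawn on top. At *HSFA2* the peak is present in all 8 libraries and the summit changes sides, and at *HSFA7A* 2 libraries have no overlapping peak and 2 have a longer one with its summit in *CAM9*.

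*HSFA3* acts downstream of DREB2A, and *HSFA4A* is known for its part in responses to oxidative and salt stress. *HSFA3* (AT5G03720, chromosome 5, 971142 to 974326) had H4ac fold enrichments of 6.14 and 7.43 in WT mock, 7.72 and 10.78 in WT +MeJA, 4.65 and 7.00 in *axe1-5* mock, and 9.16 and 13.12 in *axe1-5* +MeJA. Both MeJA groups lay above their own mock group at *HSFA3*. *HSFA4A* (AT4G18880, chromosome 4, 10347479 to 10349902) had 5.18 and 5.98, 10.56 and 8.88, 6.85 and 8.78, and 6.87 and 7.79. The WT mock libraries were the lowest of the 8, and WT +MeJA was above every other library. In *axe1-5* the mock and MeJA libraries overlapped.

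The class B repressor genes had H4ac in every library. *HSFB1* (AT4G36990, chromosome 4, 17440177 to 17442151) had 7.37 and 6.91 in WT mock, 10.34 and 15.08 in WT +MeJA, 6.96 and 12.64 in *axe1-5* mock, and 9.41 and 10.99 in *axe1-5* +MeJA. At *HSFB2A* (AT5G62020, chromosome 5, 24915807 to 24917643) the values were 4.98 and 7.43, 9.91 and 10.57, 7.35 and 12.95, and 9.23 and 11.40. At both of these genes each MeJA group was above WT mock, and the *axe1-5* groups overlapped. *HSFB2B* (AT4G11660, chromosome 4, 7042354 to 7044708) had 9.59 and 7.73, 8.37 and 13.50, 8.19 and 7.41, and 8.57 and 11.80, with WT mock overlapping all other groups.

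To ask which genes MeJA or loss of HDA6 marked with H4ac, the study's rule was applied: a gene gained the mark when it had a summit in both replicates and, in each, its fold enrichment was at least 2 times that of the control library of the same number, or that control had no summit there. In WT +MeJA, 0 of the 10 genes gained H4ac, where 8.81% of 19351 genes with an H4ac summit did, and in replicate 1 or 2 alone 3 and 2 genes met the rule (*HSFA1D*, *HSFA4A* and *HSFA7A*, then *HSFA2* and *HSFB1*), beside 24.9% and 22.2% of genes. In *axe1-5* mock it was again 0 of 10, against 7.36% of genes. In *axe1-5* +MeJA, 2 of 10 gained H4ac, *HSFA2* and *HSFA7A*, against 16.1%, so the share of the 10 genes was near that of genes at large. Set against *axe1-5* mock, *axe1-5* +MeJA gained 1 gene, *HSFA2*, against 4.82%. By the same rule turned round, none of the 10 genes lost H4ac in any of these comparisons, in which 0.729%, 1.3%, 3.67% and 3.47% of genes did. The first 3 comparisons share the WT mock libraries.

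The gain at *HSFA2* rested on where the summit fell. At *HSFA7A* this held in replicate 1 only, where the WT mock peak from *CAM9* reached into the gene. In WT mock replicate 2, no peak overlapped *HSFA7A*. When any overlapping peak was counted in place of a summit, 0 of the 10 genes gained H4ac in *axe1-5* +MeJA, against 16.3% of genes, and 0 gained it over *axe1-5* mock. With a score of at least 100 required of each peak, the count was also 0, since the *axe1-5* +MeJA replicate 2 peaks had scores of 77.4 at *HSFA2* and 63.29 at *HSFA7A*.

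For the 8 genes with a summit in every library, ratios to WT mock were set beside the ratios of the list medians. In WT +MeJA their ratio to WT mock ranged from 0.873 to 2.13 in replicate 1 (median 1.76) and from 1.14 to 2.18 in replicate 2 (median 1.47). The list medians themselves had ratios of 1.56 and 1.46, and 4 of 8 genes exceeded that ratio in each replicate. The genes nearest to a gain were *HSFA1D*, with ratios of 2.13 and 1.82, and *HSFA4A*, with 2.04 and 1.49. In *axe1-5* +MeJA the median ratios to WT mock were 1.32 and 1.53, beside list ratios of 1.41 and 1.57, with 3 of 8 genes above the list in each replicate. Over *axe1-5* mock, *axe1-5* +MeJA had a median ratio of 1.26 in replicate 1, over 9 genes with a summit in both libraries, beside a list ratio of 1.36, and of 0.932 in replicate 2, beside a list ratio of 1.14. Only 3 of 9 and 2 of 8 genes were above the list there.

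**Figure D3:**
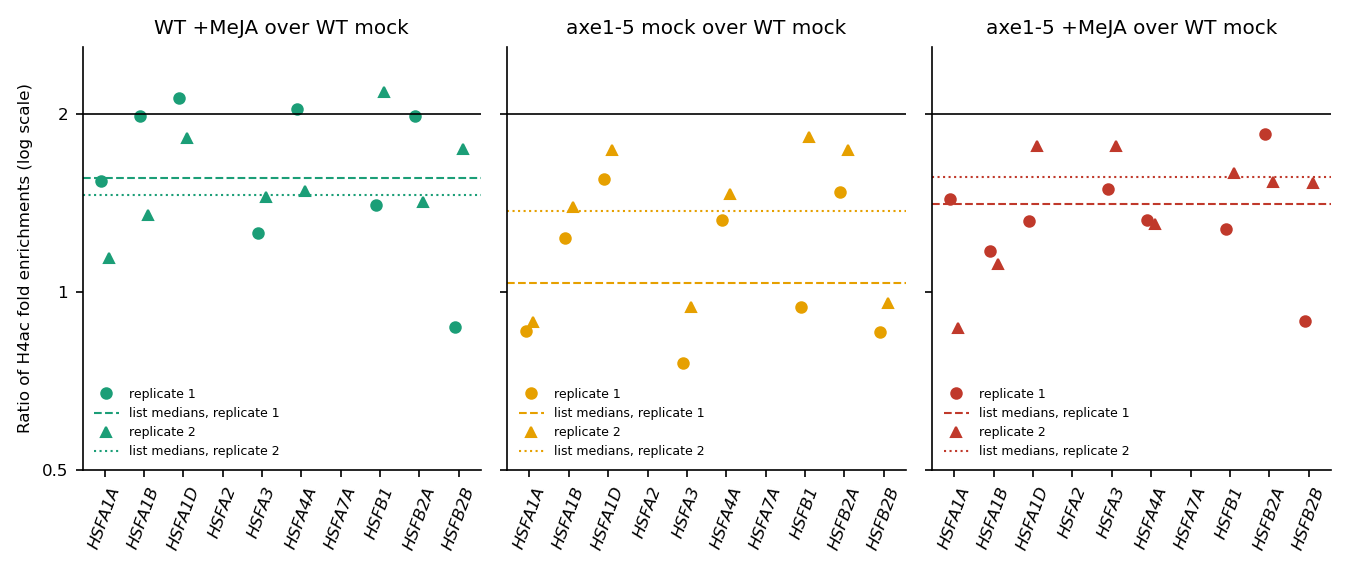
Ratio of H4ac fold enrichment to the WT mock library of the same number (log scale) for the 8 genes with a summit in every library, by condition, with circles for replicate 1, triangles for replicate 2, broken lines for the ratio of the list medians and a solid line at the 2-fold limit. No gene is above the limit in both replicates, and the points scatter around the list ratios, 1.56 and 1.46 in WT +MeJA.

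The ranges of the groups were compared next. Both WT +MeJA libraries were above both WT mock libraries at 6 of 10 genes (*HSFA1B*, *HSFA1D*, *HSFA3*, *HSFA4A*, *HSFB1* and *HSFB2A*), against 66.2% of genes. After division by the list median, 2 genes were higher, *HSFA1D* and *HSFA4A*, and 0 were lower, against 24.5% and 8.26%. In *axe1-5* mock, 2 genes were above WT mock in both libraries, again *HSFA1D* and *HSFA4A*, against 28.0%. After division by the list median, 3 were higher there, with *HSFB2A* added, and 2 lower, *HSFA1A* and *HSFA3*, against 22.6% and 9.81%. *axe1-5* +MeJA was above WT mock at 7 of 10 genes, against 52.6%. After division by the list median, 3 were higher (*HSFA2*, *HSFA3* and *HSFA7A*) and 3 lower (*HSFA1B*, *HSFA4A* and *HSFB2B*), against 27.2% and 17.4%, so that *HSFA4A* turned direction. Compared with *axe1-5* mock, *axe1-5* +MeJA was above at 4 genes, *HSFA2*, *HSFA3*, *HSFA7A* and *HSFB2B*, against 27.2%. With the division, *HSFA2* and *HSFA3* were higher, against 19.9%, and 5 genes, *HSFA1B*, *HSFA1D*, *HSFA4A*, *HSFB1* and *HSFB2A*, were lower, against 19.3%. Depth-scaled tag density, the tags per kb of peak scaled to equal tags kept, gave another order. For genes with a summit in all 8 libraries, both *axe1-5* +MeJA libraries were then below both of WT mock, except at *HSFB1*. At *HSFA1D* they had 18.8 and 15.6, against 21.5 and 26.4 in WT mock. Among the same genes, WT +MeJA was above WT mock only at *HSFA4A*, and within its range at *HSFA1D* (25.2 and 23.7). The cause of this difference was not tested.

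A limma model of log2(fold enrichment + 1) over the 8 H4ac libraries called none of the 10 genes at an adjusted p below 0.05 in any of 5 contrasts. For MeJA in WT, 0 of 10 were called and 2 had an unadjusted p below 0.05, where 3.56% of 17813 genes were called and 25.4% had such an unadjusted p. Every gene had a positive difference, from 0.28 to 1.44, with a median of 0.68 beside 0.60 over all genes. *HSFA1D* had the lowest adjusted p of the 10 in this contrast, 0.137 by limma, with a difference of 0.88 ± 0.25 (SE), and *HSFA4A* followed with 0.70 ± 0.21 and an adjusted p of 0.147. For *axe1-5* against WT under mock, 0 of 10 were called (1 with an unadjusted p below 0.05, *HSFA1D*), against 5.44% called and 11.9% at that unadjusted p. The median of the 10 was 0.35 beside 0.27 over all genes.

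For *axe1-5* +MeJA against WT mock, limma called 0 of 10 genes, with 2 at an unadjusted p below 0.05, against 12.9% and 32.2% of all genes. Those 2 were *HSFA2*, with a difference of 3.08 ± 0.89 (SE) and an adjusted p of 0.0802, and *HSFA7A*, with 2.97 ± 1.09 and 0.129. Both differences are set against WT mock libraries listed at 0, so their size depends on the added 1. They were 0.53 and 1.37 when any overlapping peak was counted, and 1.53 and 1.47 with a score of at least 100. Without WT +MeJA replicate 1 or without replicate 2, which take the spread of *HSFA2* in that group out of the fit, *HSFA2* was called, 1 of 10 genes, in this contrast and for MeJA in *axe1-5*. The median of the 10 was 0.50 beside 0.51 over all genes. For MeJA in *axe1-5*, 0 of 10 were called and 2 had an unadjusted p below 0.05 (*HSFA2* and *HSFA3*), against 6.02% and 11.9%, with a median of 0.21 beside 0.24. *HSFA3* had a difference of 0.83 ± 0.29 in this contrast and an adjusted p of 0.329, and it was called, 1 of 10, when the replicate number was added as a block.

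Whether MeJA acted differently in the genotypes was asked by the interaction. None of the 10 genes was called, against 6.65% of all genes, and 2 had an unadjusted p below 0.05, against 13.4%. These were *HSFA1D*, with -0.97 ± 0.35 (SE) and an adjusted p of 0.277, and *HSFA4A*, with -0.78 ± 0.30 and an adjusted p of 0.335. Negative values mean a smaller difference with MeJA in *axe1-5* than in WT, and the median was -0.33 for the 10 genes and -0.42 for all. An exact permutation test of 2 libraries against 2 cannot give a two-sided p below 0.333, so none was made for single genes. When the model was fitted only to the 8227 genes with a summit in all 8 libraries, it called 1165 genes for MeJA in WT, among them *HSFA1D*, 8 for *axe1-5* under mock, 1200 for *axe1-5* +MeJA against WT mock, and 0 for MeJA in *axe1-5* and the interaction, so for the 8 heat shock factor genes of that kind the last contrasts had no background of calls. At an unadjusted p below 0.05, 522 and 367 of these genes passed in those 2 contrasts.

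H3K27me3 summits at the 10 genes were isolated. They were listed at 2 of the 10 in at least 1 of 7 libraries, *HSFA1A* and *HSFA3*, a share near the 21.8% of protein-coding genes. The fragment length estimated in peak calling was 282 bp in *axe1-5* mock replicate 1 and 209 bp in *axe1-5* +MeJA replicate 2, with median peak lengths of 2911 and 2202 bp. Elsewhere it was 52 to 61 bp, with median peak lengths of 170 to 717 bp. All summits at *HSFA1A* and *HSFA3* came from lists with these short fragments, in peaks of 63 to 308 bp. Whether fold enrichments compare between the lists was not tested. At *HSFA1A* the fold enrichment was 33.37 in WT +MeJA replicate 2 and 7.67 in *axe1-5* +MeJA replicate 1, from 8 and 25 tags, in coding exon 2 at 1578 and 1568 bp from the start. At *HSFA3* it was 9.66 in WT mock replicate 1, 16.68 in WT +MeJA replicate 2 and 6.89 in *axe1-5* +MeJA replicate 1, from 11, 7 and 37 tags, in intron 2. Neither gene had a summit in both libraries of any condition. The summits at *HSFA3* also lie in AT5G03710, a gene on the other strand that overlaps it, so the annotation does not assign them to *HSFA3* alone. The study's rule asks for both replicates, and in WT +MeJA it could be applied to 1 library only, with 577986 tags. There both genes met it against WT mock replicate 2, as did 6.67% of the 6901 genes with an H3K27me3 summit in at least 1 library. Against WT mock replicate 1 the ratio at *HSFA3* was 1.73, under the limit. None of the 10 gained H3K27me3 in *axe1-5* mock, against 2.99%, or in *axe1-5* +MeJA, against 11.8%. All of these shares are over the 6901 genes, and only 2 of the 10 genes were among them. Elsewhere an H3K27me3 peak reached *HSFA2* from AT2G26160 in *axe1-5* mock replicate 1 and *axe1-5* +MeJA replicate 2 (8.5 and 7.65), and reached *HSFA4A* from AT4G18870 in *axe1-5* mock replicate 1 (3.97).

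Of the 11 other genes of the family, 3 had an H4ac summit in all 8 libraries, *HSFA4C*, *HSFA5* and *HSFC1*, and 8 had one in at least 1 library, where the 10 genes above gave 8 and 10. *HSFB3* and *HSFB4*, class B genes, had no H4ac peak in any library and had H3K27me3 summits in 5 and 3 of 7 libraries. H3K27me3 summits were also listed at *HSFA6A* in 4 libraries and at *HSFA6B* in 5, so 4 of the 11 had the mark, each in at least 3 libraries. None of the 11 gained H4ac by summit in any of the 4 comparisons, and *HSFA1E*, the remaining A1 gene, lost it in *axe1-5* mock, from 4.28 and 4.64 in WT mock to no summit in either library, although a peak of 6.71 overlapped it in replicate 2. *HSFA7B* had an H4ac summit in *axe1-5* +MeJA replicate 1 (6.10), an overlapping peak of 15.43 in replicate 2, and none in the other 6 libraries. Under the rule by overlap it was the only one of the 11 to gain H4ac in *axe1-5* +MeJA. *HSFB4* gained H3K27me3 in *axe1-5* +MeJA.

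**Figure D4:**
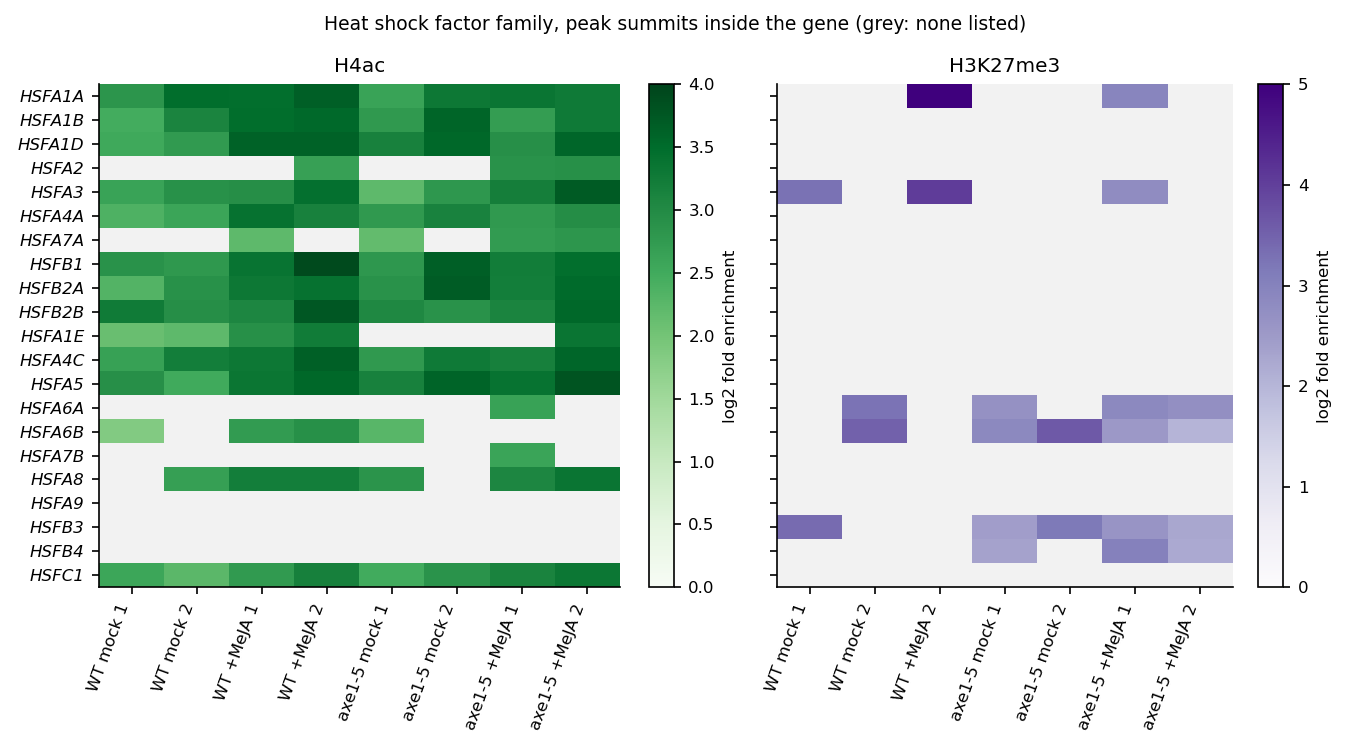
H4ac (left, green) and H3K27me3 (right, purple) at the 21 heat shock factor genes, with libraries as columns and colour as log2 fold enrichment of the summit inside the gene, grey where none was listed. The first 10 rows are the genes described above, nearly all green and with few purple cells, and purple recurs across libraries at *HSFA6A*, *HSFA6B*, *HSFB3* and *HSFB4*.

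A list of 21 heat response genes, the partners and targets of the factors, was read beside them. The background shares are over genes with an H4ac summit in at least 1 library, which 17 of the 21 had. In WT +MeJA, 4 of 21 gained H4ac, beside the background of 8.81%: *HSP90.2* and *HSC70-1*, constitutive chaperones, *HSBP*, whose product binds heat shock factors and lowers their activity, and *GOLS1*, a galactinol synthase. *HSC70-1* had 6.17 and 6.65 in WT +MeJA and no overlapping peak in the other 6 libraries. *HSP90.2* had 6.20 and 7.71, and *HSBP* 7.29 and 8.96, with 1 further summit each, in *axe1-5* +MeJA replicate 1. *GOLS1* had 6.41 and 8.24 in WT +MeJA, 6.40 and 10.24 in *axe1-5* mock, and no peak in WT mock or *axe1-5* +MeJA. limma, which tested 16 of the 21 genes, called *HSC70-1* (adjusted p = 0.00096) and *GOLS1* (0.0288) for MeJA in WT, beside 3.56% of all genes. Both were set against WT mock libraries listed at 0, which add no spread to the fit.

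In *axe1-5* mock, 2 of 21 gained H4ac, *HSP18.2* and *GOLS1*, beside 7.36%. In *axe1-5* +MeJA, 5 of 21 gained H4ac, beside 16.1%: the small heat shock protein genes *HSP17.6C* (AT1G53540), *HSP17.6II*, *HSP18.2* and *HSP22*, and *DREB2A*, the activator of *HSFA3*. All but *HSP18.2* also gained it over *axe1-5* mock, 4 of 21 beside 4.82%. *HSP17.6II* had 8.24 and 9.83 and *HSP22* had 6.02 and 8.37 in *axe1-5* +MeJA, and neither gene was touched by an H4ac peak in any of the other 6 libraries. *DREB2A* had 6.68 and 7.53, and 6.19 in WT +MeJA replicate 2, with no peak elsewhere. *HSP18.2* had 10.26 and 12.62, beside 4.30 and 10.04 in *axe1-5* mock and 5.56 in WT +MeJA replicate 1. *HSP17.6C* had 8.60 and 10.77, but a peak with its summit outside the gene overlapped it in 4 of the other 6 libraries. Unlike *HSFA2* and *HSFA7A*, 4 of these 5 (*HSP17.6II*, *HSP18.2*, *HSP22* and *DREB2A*) also gained H4ac when any overlapping peak was counted, as did *HSP90.1*. limma called *HSP17.6C*, *HSP17.6II* and *HSP22* for MeJA in *axe1-5* (adjusted p = 0.000597, 0.000597 and 0.000605) and for the interaction (0.00273, 0.00273 and 0.00277), where libraries listed at 0 add no spread. In the other direction it called *GOLS1* for MeJA in *axe1-5* (-3.19, adjusted p = 0.0123), and *GOLS1* (-6.24, 0.00289) and *HSC70-1* (-2.89, 0.00273) for the interaction. Over all genes, 6.02% were called for MeJA in *axe1-5* and 6.65% for the interaction. *HSP17.6C*, *HSP17.6II* and *HSP22* were also called for *axe1-5* +MeJA against WT mock, beside 12.9% of all genes.

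*HSP101*, the disaggregase gene, lost H4ac by summit in *axe1-5* mock and in *axe1-5* +MeJA, with 5.88 and 8.28 in WT mock and no summit in the 4 *axe1-5* libraries. A peak overlapped *HSP101* in all 8 libraries, at 6.79 and 8.28 in WT mock, 7.04 and 9.60 in *axe1-5* mock and 10.33 and 12.77 in *axe1-5* +MeJA, so here too the call followed the place of the summit. limma, fitted to the same summit values, called *HSP101* lower in both contrasts with WT mock (adjusted p = 0.029 and 0.00813). Under mock it also called *GOLS1* higher in *axe1-5* (0.029), beside 5.44% of all genes. Of the 21 genes, 5 had the 3-unit heat shock element, and 2 of those 5, *HSP17.6C* and *DREB2A*, gained H4ac by summit in *axe1-5* +MeJA. The others with the element, *HSP90.1*, *HSP17.4* and *GOLS1*, did not, although *HSP90.1* gained by overlap. *HSP17.6II*, *HSP18.2* and *HSP22* gained H4ac with no such element in the window. A link between element and gain was not tested. The elements of *HSP17.6C* and *DREB2A*, in capitals, are shown for comparison with *HSFA2* and *HSFA7A*.
HSP17.6C, chr1:19980236-19980268, plus strand: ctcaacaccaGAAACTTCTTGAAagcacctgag
DREB2A, chr5:1602031-1602063, plus strand: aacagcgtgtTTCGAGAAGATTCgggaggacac
They ended 40 bp before the start of *HSP17.6C* and 151 bp before that of *DREB2A*.

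**Figure D5:**
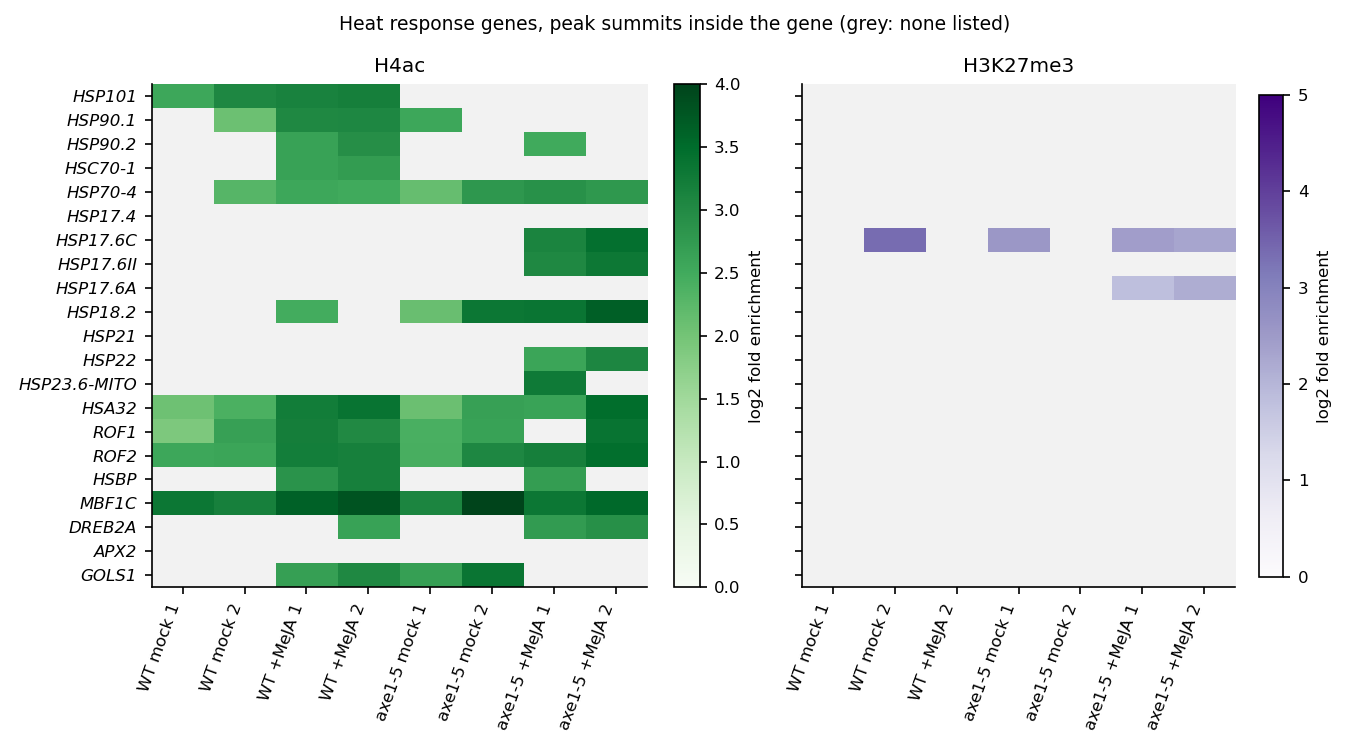
H4ac (left, green) and H3K27me3 (right, purple) at the 21 heat response genes, with libraries as columns and colour as log2 fold enrichment of the summit inside the gene, grey where none was listed. *HSP17.6C*, *HSP17.6II* and *HSP22* have H4ac summits only in the 2 *axe1-5* +MeJA libraries, and H3K27me3 summits are listed at *HSP17.6C* and *HSP17.6A*.

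The 3 genes whose H4ac profile over the 8 libraries was nearest to that of *HSFA2*, by Euclidean distance of log2(fold enrichment + 1), were AT1G19950 (*HVA22H*, distance 0.09), *DREB2A* (0.123) and AT1G12990 (0.262). Like *HSFA2*, each had a summit in WT +MeJA replicate 2 and both *axe1-5* +MeJA libraries and none in the other 5. This follows from the choice, since the distance counted a gene with no summit as 0. The likeness is of summits only: in those 5 libraries a peak overlapped *HSFA2*, and none overlapped *DREB2A*.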

How the data were processed

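The data were 15 lists of ChIP-Seq peaks, 8 for H4ac and 7 for H3K27me3. The authors trimmed reads with Trimmomatic 0.36.5, aligned them with Bowtie to TAIR10 and called peaks in each replicate with MACS 1.4.2 against an input. Deposited with each peak are its tag count, a score that rises as the p-value of MACS falls, a fold enrichment (the ratio of the ChIP level to a local background from the input) and an FDR in percent. None was normalised between libraries, and the tags kept (3235473 to 14717755 for H4ac, 577986 to 8879066 for H3K27me3) differ, and the effect of depth on fold enrichment or on the place of a summit was not tested.

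Genes came from the TAIR10.1 annotation. Fold enrichments were fitted with limma 3.58.1 (R 4.3.3, trended variance, a pseudocount of 1, genes with a summit in at least 2 of 8 H4ac libraries, 4 groups, no replicate block), with Benjamini-Hochberg adjustment over all 17813 genes and a threshold of 0.05. Gains used the library of the same replicate number as control. The scripts were tested on simulated data. Python 3.11.15, numpy 2.4.6 and pandas 2.3.3 were used.

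All 10 members are named. Of the 11 other family genes and 21 heat response genes, those that gained or lost H4ac or had H3K27me3 summits are named, and others were named after their values had been seen. Members, lists and tests were chosen with earlier results of these data known. Alternatives changed the peak filter, fold, pseudocount, scaling, overlap, control library and replicates. Replicates are biological per the study's methods. RNA data were not analysed here.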

Additional observations from a re-analysis of the deposited data

Results flagged for a closer look

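*HSFA1B* stood out because MeJA moved its H4ac in opposite directions in the genotypes when libraries with the same replicate number were set against each other. Whether the numbers pair the samples was not settled, and taken by group the *axe1-5* libraries overlapped (6.87 and 12.02 under mock, 6.54 and 9.62 with MeJA). The fold enrichment changed by 5.51 and 3.02 in replicates 1 and 2 of WT, and by -0.33 and -2.4 in *axe1-5*. The difference itself was tested by the limma interaction, which gave -0.81 ± 0.47 (SE) on the log2 scale and an adjusted p of 0.551, so it did not pass the threshold. Groups of 2 libraries are too small for a test of single outlying libraries.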

How the results depend on the processing

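Counts below are of the 10 genes. For most alternatives of the rule no share over all genes is given, so their counts cannot be set against genes at large. For gains by the rule, a limit of 1.5-fold gave 1 in WT +MeJA and 1 in *axe1-5* mock (*HSFA1D* in both), 3 in *axe1-5* +MeJA (*HSFB2A* added) and 2 in *axe1-5* +MeJA over *axe1-5* mock (*HSFA3* added). Counting any overlapping peak, and requiring a score of at least 100, each gave 0 in *axe1-5* +MeJA and 0 over *axe1-5* mock. Reducing all lists to equal length, an alternative chosen after seeing the data, gave 1 in *axe1-5* +MeJA (*HSFA2*). With 1 replicate left out, the counts were 2 to 3 in WT +MeJA, 0 to 1 in *axe1-5* mock, 2 in *axe1-5* +MeJA and 1 to 2 over *axe1-5* mock. The remaining alternatives of the rule (3-fold, list median, both control libraries, depth-scaled tag density, FDR of at most 5%) left these counts as they were. For *HSFA2* and *HSFA7A* this was fixed in advance except under the FDR limit, since their gains were set against 0 in both control libraries. A 3-fold limit also cannot raise a count of 0. H3K27me3 summits were at 4 genes by overlap and at 1 with a score of at least 100. In limma, 1 gene was called for MeJA in WT among genes with a summit in all 8 libraries (*HSFA1D*), 1 in *axe1-5* +MeJA against WT mock, 1 for MeJA in *axe1-5* and 1 for the interaction with the same number of peaks per list (*HSFA2* each time), and 0 to 1 with 1 library left out for *axe1-5* +MeJA against WT mock and for MeJA in *axe1-5* (*HSFA2*, without either WT +MeJA library). A lone library was assumed to vary like the other groups. The replicate block gave 1 for MeJA in *axe1-5* (*HSFA3*) and 0 in the other contrasts. Across 8227 genes, deviations from the group means were hardly correlated between same-numbered libraries (r from -0.0476 to 0.0295, in 6 pairs of groups). A shift common to all genes of a library cannot show in such an r. Replicate 2 had the higher list median of fold enrichment in each condition, so whether the numbers pair the samples was not settled. For MeJA in WT, division by the list median turned the log2 difference to -0.11 at *HSFA1A*, -0.078 at *HSFA3* and -0.16 at *HSFB2B*. That of *HSFA7A* was -0.36 by overlap, that of *HSFB1* was -1.27 with an FDR of at most 5%, which removed its peak with an FDR of 5.09%, and that of *HSFB2B* ran from -0.037 to 0.59 with 1 library left out, lowest without WT +MeJA replicate 2. Over all genes, leaving out 1 library moved the limma calls to between 0 and 1564 for MeJA in WT, 0 and 1770 for *axe1-5* mock, 0 and 3762 for *axe1-5* +MeJA, 252 and 1814 for MeJA in *axe1-5*, and 0 and 2276 for the interaction, and the other alternatives moved them to between 348 and 1165, 8 and 1141, 1200 and 3023, 0 and 1178, and 0 and 1500 in the same order, the values of 8, 0 and 0 being those among genes with a summit in all 8 libraries, so with 2 libraries a group the absence of calls at the 10 genes does not show that they did not change.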

Other observations

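*HSP17.6II* (AT5G12020, chromosome 5, 3882231 to 3883111) and *HSP17.6A* (AT5G12030, 3883957 to 3884838) are small heat shock protein genes on the same strand, 845 bp apart. In *axe1-5* +MeJA, *HSP17.6II* had H4ac summits of 8.24 and 9.83, and *HSP17.6A* had H3K27me3 summits of 3.57 and 4.46, the only summits of either mark listed in these 2 genes. *HSP17.6A* was not free of H4ac, since H4ac peaks with their summit outside the gene overlapped it in 7 of 8 libraries, at 8.58 and 11.75 in *axe1-5* +MeJA.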
